A study of Mus musculus with 12 samples.

Results

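Transcript levels of the collagen chain genes were examined in the lungs of 12 C57BL6/J mice, profiled by bulk RNA sequencing of the whole organ. The members are the protein-coding rows of the deposited table whose symbol is Col, a number, a and a number, which gave 42 of 23127 genes. They were grouped by collagen type into 10 fibrillar chains, 8 basement membrane chains and 24 others. Untreated mice at 0 weeks served as controls, and the other 2 groups received L-NAME in drinking water at 0.5 g/L together with a diet of 60% lipid for 2 or 5 weeks. Each group held 4 mice, 1 library each. L-NAME inhibits nitric oxide synthases, and its combination with fat feeding is used to model heart failure with preserved ejection fraction. The labels name no engineered allele and give no age. Controls were taken only at 0 weeks, so that the effect of treatment and that of time cannot be told apart. Replicate numbers follow the order of the libraries, only name mice and pair nothing across groups.

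Collagens are secreted proteins whose alpha chains wind into a helix, and the genes measured here encode single chains. Fibrillar collagens, chiefly types I and III with type V as the minor partner, form the tensile fibrils of airway walls, vessel adventitia and alveolar septa. Type IV forms the sheet of the basement membranes that alveolar epithelium and capillary endothelium share, and types XV and XVIII sit at the edge of those membranes. Among the others, type VI builds beaded microfilaments, type VII anchors epithelium, FACIT collagens decorate fibrils, type VIII lies below endothelium, and types XIII, XVII and XXIII span the cell membrane. Lung collagen mRNA comes mostly from fibroblasts, and type IV mRNA also from endothelium and epithelium.

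Upstream sequence is shown for 2 fibrillar chains that each varied with Col1a1 across libraries, and for the start shared by the most abundant pair. Sequences are RefSeq entries on GRCm38.p6, 5′ to 3′, and the 250 bases before the start were searched on both strands for CCAAT, for the GC box core GGGCGG and for the TATA sequence TATAAA, which share no bases in these stretches. Matches are in capitals.
Col1a2 (chr6:4505368-4505617, + strand): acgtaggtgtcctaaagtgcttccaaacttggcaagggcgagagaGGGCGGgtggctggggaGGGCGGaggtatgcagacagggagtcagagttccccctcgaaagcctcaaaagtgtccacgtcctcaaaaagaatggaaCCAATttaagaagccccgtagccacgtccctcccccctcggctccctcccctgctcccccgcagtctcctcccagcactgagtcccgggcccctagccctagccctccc
Col3a1 (chr1:45311288-45311537, + strand): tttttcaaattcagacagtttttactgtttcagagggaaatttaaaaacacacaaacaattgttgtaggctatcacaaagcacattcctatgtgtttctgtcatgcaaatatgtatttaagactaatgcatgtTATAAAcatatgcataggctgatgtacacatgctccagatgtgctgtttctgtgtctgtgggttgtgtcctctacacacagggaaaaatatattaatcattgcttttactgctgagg
Col4a1 and Col4a2 (chr8:11312805-11312826, + strand): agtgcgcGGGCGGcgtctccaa
The Col1a2 stretch held 2 GGGCGG and 1 CCAAT, and the Col3a1 stretch held 1 TATAAA and neither of the other motifs. Col4a1 and Col4a2 are transcribed in opposite directions, and the third line is the 22 bases that their first exons share, on the Col4a2 strand. Promoter windows were matched for 34 of the 42 members, in 36 windows. GGGCGG was present in 61.1% of the member windows and 32.7% of all windows, CCAAT in 33.3% and 33.8%, and TATAAA in 13.9% and 12.4%. A match describes the letters only.

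The step between low values put the depth at 26000000 to 34100000 assigned reads per library. Of the 42 chains, 31 reached a mean of 1 CPM (read counts scaled so that each library has the same total) over the 12 libraries and were tested: 8 of 10 fibrillar chains, all 8 basement membrane chains and 15 of 24 others. 5-week replicate 3 stood apart for the collagens and was the lowest of the 12 libraries for 23 of the 31 tested chains (74.2%), against 24.8% of all tested genes. The same library had the highest share of red cell transcripts, 1.62% of CPM against 0.108 to 0.449% elsewhere. Its deviations from the control mean were lower for longer transcripts across 15536 genes, with a Spearman coefficient of -0.563 against -0.278 to 0.416 in the other libraries. Control replicate 2 had an adipocyte marker mean of 6.96 on the log2(CPM + 1) scale against 2.64 to 3.42 in the other controls. 2-week replicate 3 had the lowest fibroblast marker mean of the 12 libraries, 6.99, and the highest smooth muscle marker mean, 6.68. For chains described singly, the value without one of these libraries is given where it moved a log2 difference over 1.5 times. No batch or date is in the labels.

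Per kilobase of exon, type IV chains were the most abundant collagen transcripts of these lungs. Col4a2 averaged 117 CPM per kb and Col4a1 108 CPM per kb over the 12 libraries. Col6a1, a type VI chain, followed at 62.8, then the fibrillar chains Col1a1 at 54.7, Col3a1 at 45.03 and Col1a2 at 38.9 CPM per kb. The length was the union of all annotated exons of a gene, from 4.38 kb for Col6a1 to 12.4 kb for Col1a2 among these chains. This order therefore depends on the annotated isoforms. Without division by length, Col4a1 averaged 804, Col4a2 772, Col1a2 483, Col3a1 442, Col1a1 359 and Col6a1 275 CPM. The remaining type IV chains lay lower, with Col4a3 at 21.7, Col4a5 at 15.1, Col4a4 at 13.8 and Col4a6 at 2.95 CPM per kb. Col23a1, a membrane-spanning chain, reached 18.4 CPM per kb, above the type V chains Col5a2 at 7.84 and Col5a1 at 6.75. The basement membrane class took 42.2 to 50.1% of all collagen CPM in a library and the fibrillar class 27.4 to 37.3%. All 42 chains together took 0.288 to 0.561% of CPM. Within libraries, Col4a2 per kb exceeded Col4a1, and Col4a1 exceeded Col6a1, in 12 of 12. The order of Col4a2 and Col4a1 is set by the lengths used, 6.619 and 7.464 kb. Before division by length, the ratio of Col4a1 to Col4a2 was 0.986 to 1.11 over the libraries, with a mean of 1.04. Per kb, Col6a1 exceeded Col1a1 in 10, Col1a1 exceeded Col3a1 in 11 and Col3a1 exceeded Col1a2 in 10 of 12. The ranges over libraries overlapped in these 5 pairs, and the order of the 3 pairs that varied between libraries was not tested.

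Summed collagen CPM was similar at 0 and 2 weeks and lower on average at 5 weeks, with a wide spread between the 5-week mice. All 42 chains summed to 4845, 5171, 4788 and 4649 CPM in control replicates 1 to 4, 4726, 4795, 4641 and 5613 CPM in 2-week replicates 1 to 4, and 4413, 4721, 2879 and 3759.7 CPM in 5-week replicates 1 to 4. 5-week replicates 3 and 4 lay below every control and every 2-week library, replicate 1 lay below both groups by a smaller margin, and replicate 2 lay among them. Group means were 4863 ± 221, 4944 ± 451 and 3943 ± 815 CPM (SD, n = 4). Relative to controls the 5-week mean came to 0.811, or 0.884 when 5-week replicate 3 was left out. By class, the fibrillar sum went from 1570.3 ± 261 CPM in controls to 1172 ± 301 CPM at 5 weeks. The basement membrane sum went from 2251 ± 85.2 to 1860.0 ± 391 CPM, and that of the others from 1042 ± 42.4 to 912 ± 158 CPM. In bulk tissue, fewer cells of a type and less RNA per cell cannot be told apart.

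**Figure D1:**
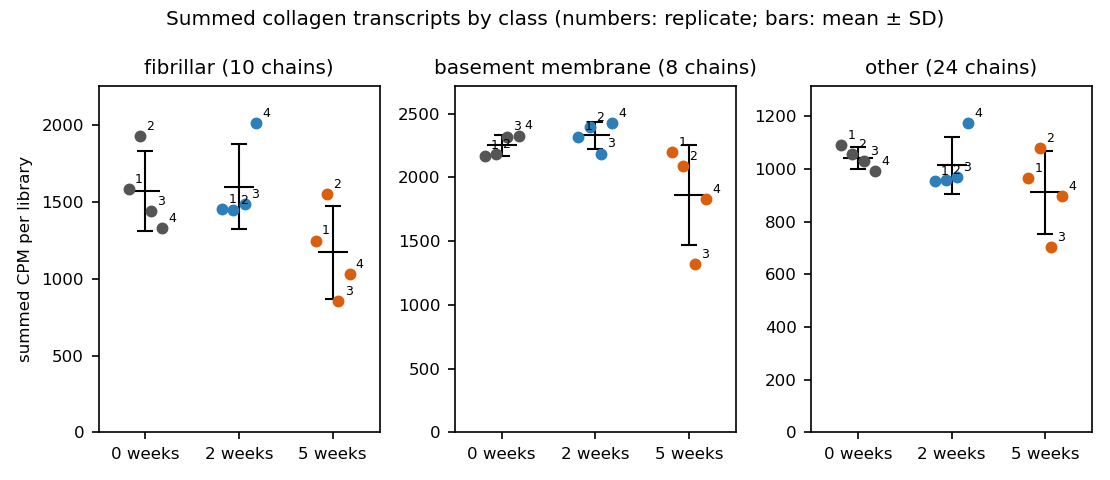
Summed CPM per library (vertical axis, from 0) for the fibrillar, basement membrane and other collagen chains at 0, 2 and 5 weeks. Points are single mice labelled with their replicate number and bars are mean ± SD, n = 4; 5-week replicate 3 is the lowest point in each class, at 853, 1322 and 704 CPM.

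No collagen chain passed the adjusted threshold in any comparison, and no gene of the table did. Limma on log2(CPM + 1) with Benjamini-Hochberg adjustment over 15562 genes called 0 of 31 chains between 2 and 0 weeks, 0 of 31 between 5 and 0 weeks and 0 of 31 between 5 and 2 weeks, against a background of 0% of all genes called in each. The lowest adjusted p of a chain was 0.494 between 2 and 0 weeks, 0.543 between 5 and 0 weeks and 0.288 between 5 and 2 weeks. The F-test over the 3 groups also called 0 chains and 0% of genes, with a lowest adjusted p of 0.359. At an unadjusted p below 0.05, limma counted 1 chain between 2 and 0 weeks, with the lower mean at 2 weeks, against 9.24% of all genes (3.52% lower and 5.72% higher). It counted 12 between 5 and 0 weeks (38.7%), against 8.63% of all genes, and 13 between 5 and 2 weeks (41.9%), against 10.9%. Of the 12, 11 had the lower mean at 5 weeks (2.79% of all genes) and 1 the higher (5.84%), and of the 13, all had the lower mean (4.72%) and 0 the higher (6.18%). Without 5-week replicate 3 those counts were 4 and 9, against 5.81 and 11.3% of all genes in that fit. With control replicate 2, 2-week replicate 3 and 5-week replicate 3 all left out they were 4 and 8, against 5.69 and 7.47%. The count between 5 and 0 weeks was 6 when control replicate 2 was dropped (7.48% of all genes), 6 when 5-week replicate 4 was (8.17%), and 19 when 5-week replicate 2 was (9.75%). Between 5 and 2 weeks, dropping 2-week replicate 4 gave 7 chains (16.6% of all genes) and dropping 5-week replicate 4 gave 6 (8.64%).

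By direction alone, the log2 difference was below 0 for 17 of 31 chains between 2 and 0 weeks, against 44.9% of all genes. It was below 0 for 28 of 31 between 5 and 0 weeks, against 45% of all genes, and for 24 of 31 between 5 and 2 weeks, against 49.8%. Median log2 differences of the 31 chains were -0.02, -0.29 and -0.27 in the same order, beside 0.02, 0.02 and 0.0007 for all genes. Fibrillar chains had medians of -0.04, -0.41 and -0.42, basement membrane chains 0.06, -0.28 and -0.32, and the others -0.04, -0.23 and -0.12. With 5-week replicate 3 left out the medians between 5 and 0 weeks were -0.23, -0.12 and -0.08 in the 3 classes, and those between 5 and 2 weeks -0.25, -0.17 and -0.01. The median of all 31 chains was then -0.12 between 5 and 0 weeks, with 25 chains lower, and -0.15 between 5 and 2 weeks, with 23 lower. Both 5-week comparisons share their 5-week mice, and both control-based ones share the control mice. Members' libraries did not overlap, with the 5-week ones lower, for 2 chains against controls (background 1.36% of all genes) and 3 chains against 2 weeks (2.56%). None did so between 2 and 0 weeks (1.95%). No chain was higher without overlap in the 3 comparisons, against 3.37, 3.65 and 2.38% of all genes.

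**Figure D2:**
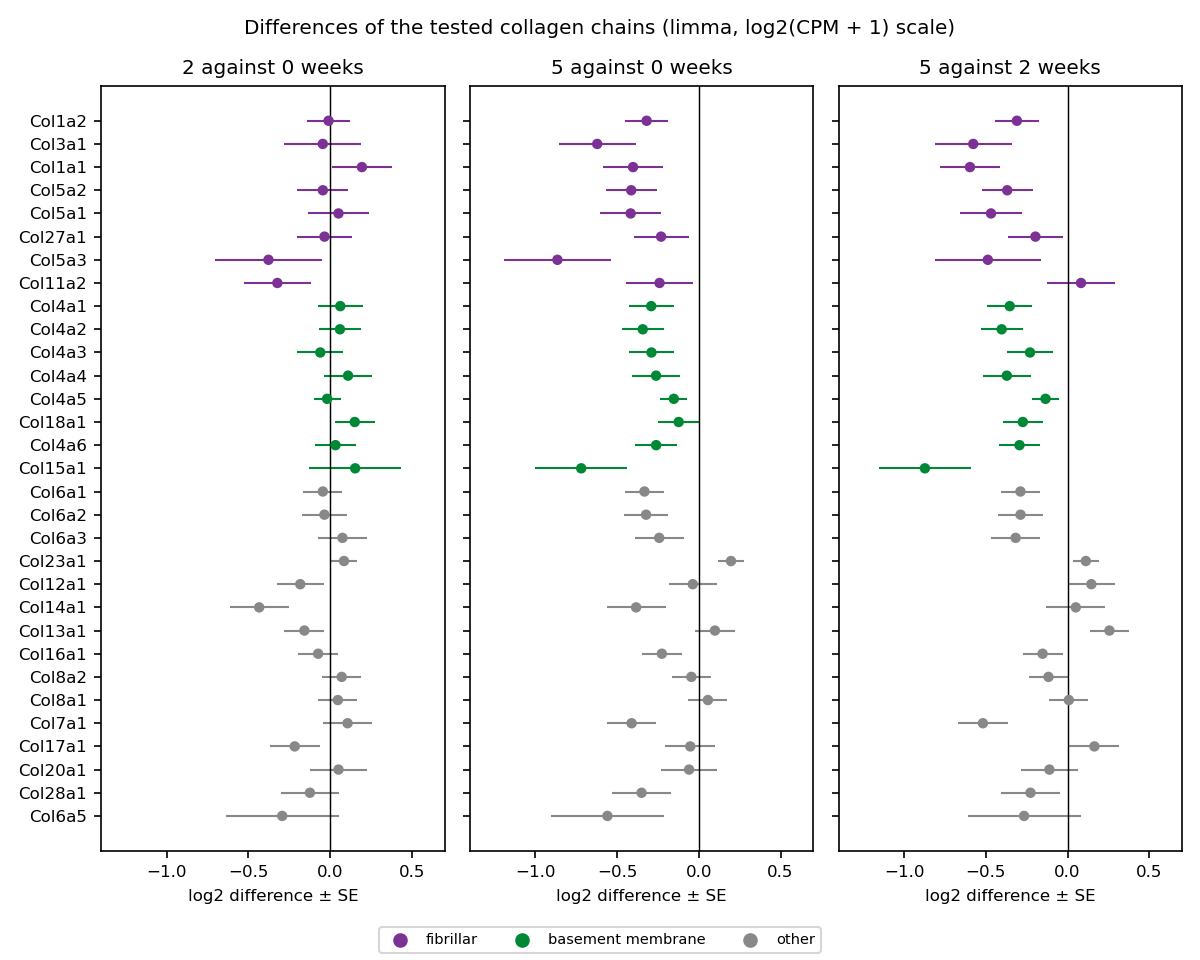
Log2 difference ± SE (limma, log2(CPM + 1), horizontal axis) of the 31 tested chains in the 3 comparisons, coloured by class. Between 5 and 0 weeks 28 of 31 points lie below 0, and none passed the adjusted threshold.

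Type I collagen is the main fibril of lung connective tissue, and its chains were at their lowest in the 5-week group. Col1a1 (ENSMUSG00000001506, chromosome 11, 94827050 to 94843868 by the deposited coordinates) encodes the alpha-1 chain and was at 393, 428, 341 and 313 CPM in control replicates 1 to 4, 399.7, 388, 389 and 511 CPM in 2-week replicates 1 to 4, and 309, 396, 193 and 248 CPM in 5-week replicates 1 to 4. 5-week replicates 1, 3 and 4 lay below every control and every 2-week library, and replicate 2 lay within the range of the controls. The log2 difference was -0.40 ± 0.18 (SE) between 5 and 0 weeks (limma adjusted p = 0.575) and -0.60 ± 0.18 between 5 and 2 weeks (limma adjusted p = 0.29). Without 5-week replicate 3 those values were -0.23 ± 0.16 and -0.42 ± 0.16. Col1a2 (ENSMUSG00000029661, chromosome 6, 4504814 to 4541544), the alpha-2 chain, was at 541, 567, 485 and 474 CPM in control replicates 1 to 4, 494, 477, 477 and 610.4 CPM in 2-week replicates 1 to 4, and 441, 522, 322 and 392 CPM in 5-week replicates 1 to 4. The same 3 libraries of the 5-week group were below all controls and all 2-week libraries. Its log2 difference was -0.32 ± 0.13 between 5 and 0 weeks (limma adjusted p = 0.554) and -0.31 ± 0.13 between 5 and 2 weeks (limma adjusted p = 0.424), and without 5-week replicate 3 these were -0.20 ± 0.11 and -0.19 ± 0.11. Neither chain of type I passed the threshold.

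Type III collagen, a chain that forms thinner fibrils with type I, is encoded by a single gene. Col3a1 (ENSMUSG00000026043, chromosome 1, 45350698 to 45388866) was at 477, 726, 446 and 380.1 CPM in control replicates 1 to 4, 405, 413, 452 and 685 CPM in 2-week replicates 1 to 4, and 349, 465, 246 and 262 CPM in 5-week replicates 1 to 4. Control replicate 2 and 2-week replicate 4 were far above their groups, and 5-week replicates 1, 3 and 4 were below every mouse of the other groups. The log2 difference was -0.62 ± 0.23 between 5 and 0 weeks (limma adjusted p = 0.543) and -0.58 ± 0.23 between 5 and 2 weeks (limma adjusted p = 0.398). Without control replicate 2 the first was -0.43 ± 0.22.

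Type V chains start fibrils and limit their width. Col5a1 was at 59.1, 78.9, 54.5 and 53.9 CPM in control replicates 1 to 4, 59.7, 60.1, 62.2 and 70.99 CPM in 2-week replicates 1 to 4, and 56.2, 61.4, 30.5 and 39.9 CPM in 5-week replicates 1 to 4. 5-week replicates 3 and 4 were below the other 10 mice, and replicates 1 and 2 lay among the controls. Col5a2, whose chain pairs with that of Col5a1, was at 80.4, 91.3, 76.7 and 80.8 CPM in control replicates 1 to 4, 66.9, 76.3, 75.02 and 105 CPM in 2-week replicates 1 to 4, and 67.3, 77.6, 45.3 and 60.1 CPM in 5-week replicates 1 to 4. 5-week replicates 1, 3 and 4 lay below all controls, and 2-week replicate 4 held the highest value of the 12. Log2 differences between 5 and 0 weeks were -0.42 ± 0.19 for Col5a1 (limma adjusted p = 0.575) and -0.41 ± 0.16 for Col5a2 (limma adjusted p = 0.543). Without 5-week replicate 3 they were -0.23 ± 0.15 and -0.27 ± 0.13.

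Col5a3, the rarer type V chain, was at 3.97, 14.2, 3.97 and 2.93 CPM in control replicates 1 to 4, 3.11, 3.92, 4.798 and 3.42 CPM in 2-week replicates 1 to 4, and 2.19, 2.37, 1.999 and 3.16 CPM in 5-week replicates 1 to 4. Control replicate 2 stood far above all other mice, and 5-week replicates 1, 2 and 3 were below all controls. Its log2 difference between 5 and 0 weeks was -0.86 ± 0.33 (limma adjusted p = 0.543) and was -0.43 ± 0.16 without control replicate 2. That library also held the highest Col15a1, Col6a5 and Col6a6 values. Its adipocyte marker mean of 6.96 exceeded all other libraries (2.48 to 4.30), over 8 of 8 markers that each averaged at least 1 CPM. The part of adipose tissue in these values was not tested. The remaining fibrillar chains tested, Col27a1 and Col11a2, lay between 14.1 and 30.5 CPM and between 0.531 and 2.08 CPM. Col11a2, a chain best known from cartilage, averaged 1.59 ± 0.337 CPM in controls and 1.09 ± 0.408 CPM at 2 weeks (SD, n = 4), a log2 difference of -0.32 ± 0.21 (limma adjusted p = 0.632). Of 10 cartilage markers, 7 were matched by symbol and 2 reached the filter, and Matn3 and Cnmd averaged close to 0 CPM.

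**Figure D3:**
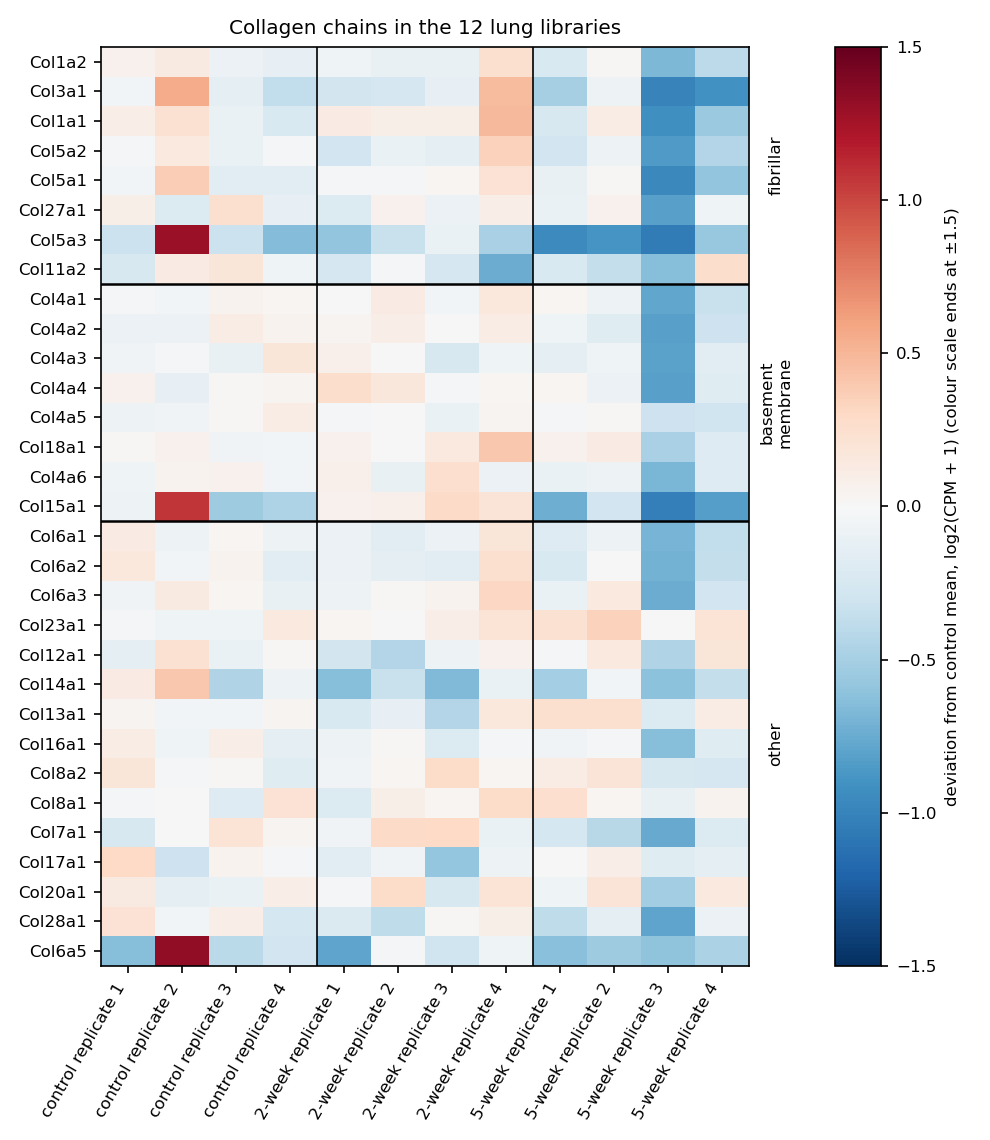
Deviation of each tested chain (rows, by class and then by level) from its control mean in the 12 libraries (columns), on the log2(CPM + 1) scale from blue (lower) to red (higher). 5-week replicate 3 stands out as a blue column and is the lowest of the 12 libraries for 23 of 31 chains.

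Col4a1 and Col4a2 encode the type IV chains found in nearly every basement membrane. Col4a1 (ENSMUSG00000031502, chromosome 8, 11248423 to 11362826) was at 818, 811, 867 and 852 CPM in control replicates 1 to 4, 843, 908, 812 and 936 CPM in 2-week replicates 1 to 4, and 855, 793, 487 and 661 CPM in 5-week replicates 1 to 4. 5-week replicates 2, 3 and 4 lay below all controls and all 2-week libraries, and replicate 1 lay among them. Its log2 difference was -0.29 ± 0.14 between 5 and 0 weeks (limma adjusted p = 0.581) and -0.35 ± 0.14 between 5 and 2 weeks (limma adjusted p = 0.373). Without 5-week replicate 3 these were -0.13 ± 0.09 and -0.19 ± 0.09. Col4a2 (ENSMUSG00000031503, chromosome 8, 11362805 to 11499287) was at 767, 768, 879.8 and 844 CPM in control replicates 1 to 4, 837, 872, 808 and 876 CPM in 2-week replicates 1 to 4, and 776, 716, 463 and 655 CPM in 5-week replicates 1 to 4. All 4 of the 5-week libraries were below the 4 of 2 weeks, while 5-week replicate 1 exceeded the controls with the lowest values. Between 5 and 2 weeks the log2 difference was -0.40 ± 0.13 (limma adjusted p = 0.304, exact two-sided permutation p = 0.0286, the smallest that 4 against 4 allows), and -0.25 ± 0.08 without 5-week replicate 3. Between 5 and 0 weeks it was -0.34 ± 0.13 (limma adjusted p = 0.543), and -0.19 ± 0.08 without 5-week replicate 3.

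Col4a3, Col4a4 and Col4a5 form the network of the alveolar and glomerular basement membranes, and Col4a3 and Col4a4 lie head to head on chromosome 1. Col4a3 was at 222, 229.6, 214 and 263 CPM in control replicates 1 to 4, 244, 229.9, 196 and 221 CPM in 2-week replicates 1 to 4, and 209.8, 222, 132 and 208 CPM in 5-week replicates 1 to 4. 5-week replicate 3 was far below the other 11 mice. Col4a4 was at 157, 137, 152 and 155 CPM in control replicates 1 to 4, 180.4, 169, 148 and 153 CPM in 2-week replicates 1 to 4, and 153, 141, 85.2 and 132 CPM in 5-week replicates 1 to 4. Again 5-week replicate 3 was lowest, and replicates 1 and 2 lay among the controls. Between 5 and 0 weeks the log2 differences were -0.29 ± 0.14 for Col4a3 and -0.26 ± 0.15 for Col4a4 (limma adjusted p = 0.59 and 0.642), and -0.12 ± 0.08 and -0.08 ± 0.08 without 5-week replicate 3. Col4a5 and Col4a6 are an X-linked pair whose RefSeq starts lie 1343 bases apart on opposite strands. Col4a5 was at 99.4, 101, 106 and 113 CPM in control replicates 1 to 4, 103, 106, 98.3 and 108 CPM in 2-week replicates 1 to 4, and 103, 106, 84.5 and 85.2 CPM in 5-week replicates 1 to 4. 5-week replicates 3 and 4 were below the other 10 mice, and replicates 1 and 2 lay among them. Col4a6 was at 23.4, 25.6, 25.7 and 23.9 CPM in control replicates 1 to 4, 25.9, 22.8, 29.5 and 23.2 CPM in 2-week replicates 1 to 4, and 22.97, 23.3, 14.96 and 21.4 CPM in 5-week replicates 1 to 4. Its 5-week libraries all lay below the lowest control, replicates 1 and 2 by a small margin and replicate 3 by a wide one (exact two-sided permutation p = 0.0286). The log2 difference of Col4a6 between 5 and 0 weeks was -0.26 ± 0.13 (limma adjusted p = 0.594), and -0.12 ± 0.09 without 5-week replicate 3.

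Types XV and XVIII, whose C-terminal fragments include endostatin, both had their lowest group mean at 5 weeks. The ratio of Col15a1 to Col18a1 did not pass in any comparison. Its exact two-sided permutation p, adjusted over 24 ratio comparisons, was 0.343 for 5 against 0 weeks and 0.229 for 5 against 2 weeks. Col15a1 (ENSMUSG00000028339, chromosome 4, 47208161 to 47313167), expressed by vessels, was at 18.9, 43.01, 13.5 and 14.2 CPM in control replicates 1 to 4, 20.9, 21.1, 24.5 and 23.01 CPM in 2-week replicates 1 to 4, and 11.6, 16.2, 9.27 and 10.8 CPM in 5-week replicates 1 to 4. The 5-week libraries lay below all 2-week libraries but overlapped the controls, of which replicate 2 was the highest of the 12. The log2 difference between 5 and 2 weeks was -0.87 ± 0.28 (limma adjusted p = 0.305, exact two-sided permutation p = 0.0286), the largest of any chain in that comparison, and -0.77 ± 0.31 without 5-week replicate 3. Between 5 and 0 weeks it was -0.72 ± 0.28 (limma adjusted p = 0.551), and -0.36 ± 0.16 without control replicate 2. Col18a1 was at 65.3, 67.4, 62.1 and 62.6 CPM in control replicates 1 to 4, 67.1, 64.1, 71.1 and 85.4 CPM in 2-week replicates 1 to 4, and 67.4, 69.9, 45.6 and 56.3 CPM in 5-week replicates 1 to 4. 5-week replicates 1 and 2 were as high as the controls, and replicates 3 and 4 were below them. Its log2 difference between 5 and 0 weeks was -0.12 ± 0.12 (limma adjusted p = 0.774), -0.00157 when 5-week replicate 3 was left out, and 0.02 when all 3 libraries that stood apart were.

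Type VI collagen links cells to the interstitial matrix. Col6a1 (ENSMUSG00000001119, chromosome 10, 76544626 to 76562002) was at 324, 282, 302 and 282 CPM in control replicates 1 to 4, 279, 264, 279 and 336 CPM in 2-week replicates 1 to 4, and 261, 281, 183 and 230.1 CPM in 5-week replicates 1 to 4. The highest 5-week library lay just below the lowest control, so that the groups did not overlap. The log2 difference was -0.33 ± 0.12 between 5 and 0 weeks (limma adjusted p = 0.543, exact two-sided permutation p = 0.0286), and -0.21 ± 0.09 without 5-week replicate 3. Col6a2 was at 260.2, 226, 240.4 and 207 CPM in control replicates 1 to 4, 219, 212, 209 and 274 CPM in 2-week replicates 1 to 4, and 198, 234, 141 and 182 CPM in 5-week replicates 1 to 4. 5-week replicates 1, 3 and 4 were below all controls. Its log2 difference between 5 and 0 weeks was -0.32 ± 0.14 (limma adjusted p = 0.554), and -0.19 ± 0.11 without 5-week replicate 3. Col6a3, the largest of the main type VI chains, spanned 132 to 157 CPM in controls and 85.2 to 159 CPM at 5 weeks. All 4 tested type VI chains had negative log2 differences against controls, with a median of -0.33. Col6a5 depended on control replicate 2, at 4.96 CPM beside 0.524 to 0.947 CPM in the other controls.

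Col7a1 (ENSMUSG00000025650, chromosome 9, 108782654 to 108813943), the anchoring fibril chain, had the lowest p of all chains between 5 and 2 weeks. It was at 4.82, 5.87, 6.95 and 6.12 CPM in control replicates 1 to 4, 5.67, 7.403, 7.45 and 5.41 CPM in 2-week replicates 1 to 4, and 4.73, 4.16, 3.09 and 4.98 CPM in 5-week replicates 1 to 4. All 5-week libraries were below all 2-week libraries, and 3 of them were below all controls. The log2 difference was -0.52 ± 0.15 between 5 and 2 weeks (limma adjusted p = 0.288, exact two-sided permutation p = 0.0286) and -0.41 ± 0.15 between 5 and 0 weeks (limma adjusted p = 0.543). When limma weighted the libraries by their quality, Col7a1 passed between 5 and 2 weeks with an adjusted p of 0.0436, in a fit that called 881 genes (5.66%) and 2 of 31 chains. Without 5-week replicate 3 its log2 difference in that comparison was -0.40 ± 0.14.

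Of 4 membrane-spanning chains, 3 were tested, and none of these had an unadjusted p below 0.05 between 5 and 2 weeks. Col23a1 (ENSMUSG00000063564, chromosome 11, 51180747 to 51474745) was named after its values were seen, because it was the 1 chain with a higher mean at 5 than at 0 weeks at an unadjusted p below 0.05. It was at 96.9, 94.05, 94.3 and 109 CPM in control replicates 1 to 4, 100.1, 99.004, 105 and 113 CPM in 2-week replicates 1 to 4, and 115, 126, 98.99 and 113 CPM in 5-week replicates 1 to 4. 5-week replicates 1, 2 and 4 lay above all controls and replicate 3 lay among them. The log2 difference between 5 and 0 weeks was 0.20 ± 0.08 (limma adjusted p = 0.554), and 0.26 ± 0.07 without 5-week replicate 3. Col13a1, a focal adhesion chain, was at 47.02, 44.3, 44.2 and 46.98 CPM in control replicates 1 to 4, 38.7, 41.9, 33.5 and 50.8 CPM in 2-week replicates 1 to 4, and 54.2, 53.99, 39.5 and 49.4 CPM in 5-week replicates 1 to 4. The controls were close together, 2-week replicates 1, 2 and 3 lay below them, and 5-week replicates 1, 2 and 4 above. Its log2 difference was 0.26 ± 0.12 between 5 and 2 weeks (limma adjusted p = 0.472), or 0.16 ± 0.12 without 2-week replicate 3. It was -0.16 ± 0.12 between 2 and 0 weeks (limma adjusted p = 0.681), or -0.07 ± 0.12 without that library. Dropping 5-week replicate 3 moved the difference between 5 and 0 weeks from 0.10 ± 0.12 (limma adjusted p = 0.821) to 0.20 ± 0.11. With library weights Col13a1 passed between 5 and 2 weeks, with an adjusted p of 0.0254. The median of the 3 tested membrane-spanning chains was 0.10 between 5 and 0 weeks and 0.16 between 5 and 2 weeks. The difference between membrane-spanning and secreted chains was not tested.

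Col14a1, a FACIT chain on the surface of type I fibrils, was the single chain with an unadjusted p below 0.05 between 2 and 0 weeks. It was at 63.1, 77.3, 42.4 and 54.99 CPM in control replicates 1 to 4, 36.97, 45.7, 36.4 and 54.1 CPM in 2-week replicates 1 to 4, and 40.5, 56.2, 37.6 and 44.9 CPM in 5-week replicates 1 to 4. All 2-week libraries lay below control replicates 1, 2 and 4, and control replicate 3 lay among them. The log2 difference between 2 and 0 weeks was -0.43 ± 0.18 (limma adjusted p = 0.494), and -0.30 ± 0.17 without control replicate 2. Also among the 5 chains with the smallest p in that comparison were Col17a1, the hemidesmosome chain, at -0.22 ± 0.15, and Col12a1, a fibril-associated chain, at -0.18 ± 0.15 (limma adjusted p = 0.655 and 0.686). Col17a1 spanned 3.77 to 6.29 CPM in controls and 2.98 to 4.74 CPM at 2 weeks, and Col12a1 56.004 to 73.5 CPM and 45.6 to 65.2 CPM. Both pairs of ranges overlapped. Col17a1 was at -0.10 ± 0.14 without 2-week replicate 3, and Col12a1 at -0.10 ± 0.15 without control replicate 2. Col8a1 and Col8a2, the short-chain network of vessels, averaged 18.4 ± 2.26 and 22.9 ± 2.53 CPM in controls and 19.1 ± 2.16 and 22.3 ± 3.72 CPM at 5 weeks (SD, n = 4). Col16a1, Col20a1 and Col28a1 likewise overlapped between controls and 5 weeks.

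5-week replicate 3, and to a smaller extent replicate 4, held the lowest collagen values of the 5-week group. Over the 31 chains the median deviation from the control mean was -0.70 on the log2 scale in 5-week replicate 3, with 27 chains below all controls, and -0.25 in replicate 4, with 18 below. Replicates 1 and 2 had medians of -0.11 and -0.03. In the 2-week group, replicate 4 was the highest of the 12 libraries for 9 chains, with a median of 0.11. Collagen transcripts are long: 27 of 31 tested chains are at least 4.68 kb long, in the longest of 4 equal bins of tested genes, and their median GC content is 56.1% against 49.7%. In 5-week replicate 3 the median deviation of all genes went from 0.29 in the shortest bin to -0.287 in the longest. Among 1470 long, GC-rich genes it was -0.391, beside -0.746 for the 22 collagen chains of that kind. In 5-week replicate 4, which had no length trend (Spearman coefficient -0.0117), it was 0.0159 for those genes and -0.244 for the chains. After the length trend of each library was removed, the median of the chains was -0.21 between 5 and 0 weeks and -0.26 between 5 and 2 weeks, with 0 chains called by limma. At an unadjusted p below 0.05 that fit counted 14 and 18 chains, against 9.09 and 13.6% of all genes. That correction and the length measure were added after the data were seen.

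**Figure D4:**
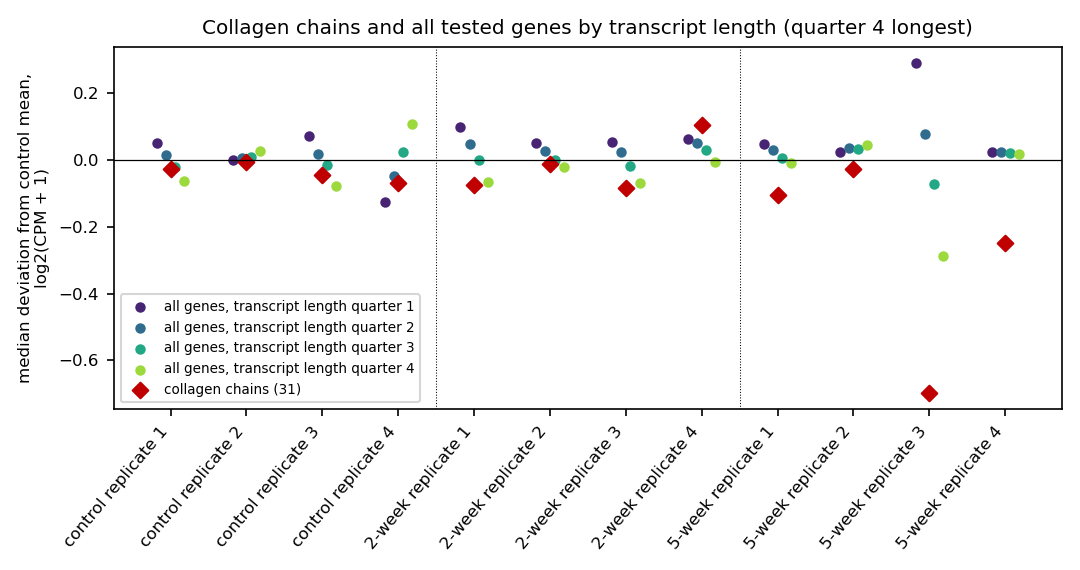
Median deviation from the control mean (log2(CPM + 1), vertical axis) of the 31 collagen chains (red diamonds) and of all tested genes in 4 equal bins of transcript length (circles) in each library. In 5-week replicate 3 the bins spread from 0.29 to -0.287 with the chains at -0.70, while in replicate 4 the bins coincide and the chains lie at -0.25.

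As list means, fibroblast and endothelial markers in 5-week replicate 3 lay within the range of the controls. Single fibroblast markers went both ways, with 11 of 15 below 0 in log2 difference between 5 and 0 weeks (45% of all genes). At an unadjusted p below 0.05, 1 was lower and 3 higher (2.79 and 5.84% of all genes). The mean log2 level of 15 of 15 tested fibroblast markers was 7.26 to 7.64 in controls, 6.99 to 7.39 at 2 weeks and 7.29 to 7.45 at 5 weeks, with 7.32 in 5-week replicate 3. The 12 of 12 endothelial markers averaged 8.12 to 8.44 in controls and 8.20 in 5-week replicate 3, and the 10 of 10 pericyte markers 6.02 to 6.35 and 6.01. Smooth muscle markers, 10 of 10 tested, averaged 6.19 to 6.31 in controls, 6.20 to 6.68 at 2 weeks and 5.92 to 6.20 at 5 weeks. For these, 5-week replicates 3 and 4 were the lowest of the 12 libraries, at 5.92 and 5.93. The 8 of 8 leukocyte markers averaged 4.32 to 4.94 in controls and 5.03 to 5.65 at 5 weeks, without overlap. Their highest value of the 12 libraries, 5.65, was in 5-week replicate 3. Every marker of these 5 lists averaged at least 1 CPM, and the part of cell composition in the collagen values was not tested.

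Several pairs of chains varied together from mouse to mouse. Only 8 chosen pairs were examined, with no background of unrelated pairs. Of the 31 chains, 27 lay below all controls in 5-week replicate 3 and 18 in replicate 4. Whether the relation is particular to partner chains was not tested. Pearson's r on log2(CPM + 1) over the 12 libraries was 0.965 for Col1a1 with Col1a2 (permutation p = 1e-05, the smallest that 100000 permutations give; adjusted p = 4e-05 over 8 pairs; rho 0.951, adjusted p = 0.00024). For Col6a1 with Col6a2 it was 0.979 (permutation p = 1e-05, adjusted 4e-05; rho 0.881, adjusted p = 0.0008). For Col4a1 with Col4a2 it was 0.978 (permutation p = 2e-05, adjusted 5.33e-05; rho 0.909, adjusted p = 0.0004). Their ratio, Col4a1 to Col4a2, was between 0.986 and 1.11, with a coefficient of variation of 3.79%. That coefficient was 3.72% for Col6a1 to Col6a2, 10.6% for Col1a1 to Col1a2, 10.9% for Col5a1 to Col5a2, 8.76% for Col4a3 to Col4a4 and 13.1% for Col4a5 to Col4a6. Col1a1 with Col3a1, chains of different collagens in shared fibrils, gave 0.908 (permutation p = 3e-05, adjusted 6e-05; rho 0.874, adjusted p = 0.0008). With the 2 libraries farthest from the median left out, 5-week replicates 3 and 4, these 4 pairs gave r of 0.873, 0.936, 0.821 and 0.821. On deviations from the group means they gave 0.990, 0.971, 0.970 and 0.899, so the relation also held within groups.

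Other pairs held less well. Col5a1 with Col5a2 gave r = 0.903 (permutation p = 0.00013, adjusted 0.000208), but rho = 0.594 (adjusted p = 0.0529), and r = 0.678 without 5-week replicates 3 and 4. On deviations from group means this pair gave r = 0.852 (adjusted permutation p = 0.000848). Col4a3 with Col4a4 gave r = 0.887 (permutation p = 0.00723, adjusted 0.00964; rho 0.692, adjusted p = 0.0204). On deviations from group means, with all 12 libraries, r was 0.894 (adjusted permutation p = 0.000867). Without control replicate 4 and 5-week replicate 3 it was 0.554 (adjusted p = 0.107), so that relation did not pass without those libraries. For Col15a1 with Col18a1 r was 0.619 (permutation p = 0.0371, adjusted 0.0424; rho 0.741, adjusted p = 0.0116), and 0.448 on deviations from group means (adjusted p = 0.169). Col4a5 with Col4a6 gave 0.597 (permutation p = 0.0554, adjusted 0.0554; rho 0.210, adjusted p = 0.512), and -0.505 without 5-week replicates 3 and 4 (adjusted p = 0.144). The neighbouring X-linked genes showed no relation that held without those libraries.

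**Figure D5:**
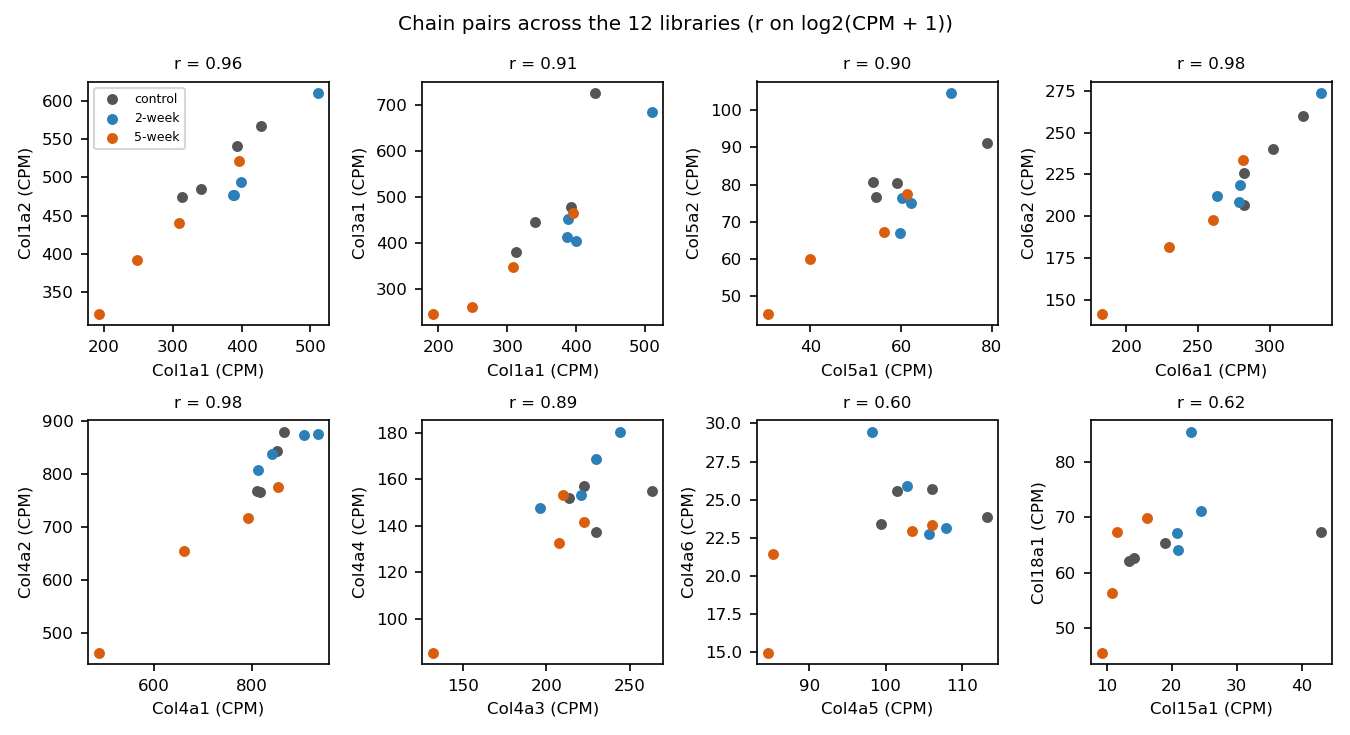
CPM of the 8 chain pairs in the 12 libraries, coloured by group, with Pearson's r on log2(CPM + 1) above each panel. The axes do not start at 0. Col1a1 with Col1a2, Col6a1 with Col6a2 and Col4a1 with Col4a2 lie close to a line, with r of 0.965, 0.979 and 0.978.

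The ratio of Col1a1 to Col1a2 was 0.660 to 0.756 in controls, 0.809 to 0.837 at 2 weeks and 0.599 to 0.760 at 5 weeks. The 2-week libraries lay above all others. The exact two-sided permutation p was 0.0286 for 2 against 0 weeks and 0.0286 for 5 against 2 weeks, and both were 0.229 after adjustment over the 24 ratio comparisons, which were examined after values were seen. Neither passed.

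Genes that modify, fold, cut, cross-link, bind or degrade collagen were counted from 8 lists of 91 symbols, of which 87 were tested. Limma called 0 of 87 in each comparison. At an unadjusted p below 0.05, 7 were lower and 1 higher between 2 and 0 weeks (9.2%, against 9.24% of all genes). Of all genes, 3.52% were lower and 5.72% higher in that comparison. Between 5 and 0 weeks 15 were lower and 3 higher (20.7%, against 8.63%, with 2.79% lower and 5.84% higher). Between 5 and 2 weeks 9 were lower and 5 higher (16.1%, against 10.9%, with 4.72% lower and 6.18% higher). All 7 cross-linking genes had a log2 difference below 0 between 5 and 0 weeks, against 45% of all genes. Among them Lox, lysyl oxidase, averaged 72.8 ± 11.9 CPM in controls, 60.2 ± 8.33 at 2 weeks and 47.4 ± 2.41 at 5 weeks (SD, n = 4). All 4 of the 5-week Lox values, 44.3 to 49.5 CPM, lay below the other 8, which ranged from 51.3 to 90.3 CPM. Its log2 difference between 5 and 0 weeks was -0.60 ± 0.11 (limma adjusted p = 0.215). Loxl2, a second cross-linking oxidase, went from 50.5 ± 4.95 to 36.3 ± 9.51 CPM (limma adjusted p = 0.513). Of 13 fibril regulation genes, 12 had a log2 difference below 0 between 2 and 0 weeks (44.9% of all genes), with a median of -0.25. At an unadjusted p below 0.05, 3 were lower and 0 higher. Abi3bp, 1 of them, averaged 74.5 ± 8.66 CPM in controls and 53.8 ± 4.10 CPM at 2 weeks (limma adjusted p = 0.176). Between 5 and 0 weeks 11 of the 13 were below 0.

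Of 8 genes for trimming the propeptides of fibrillar collagen, 5 had a log2 difference below 0 between 5 and 0 weeks, against 45% of all genes. Their median was -0.07, and 2 had an unadjusted p below 0.05 in limma, against 8.63% of all genes. Those 2 were Adamts2 and Bmp1. Adamts2, the N-propeptidase, averaged 91.9 ± 9.21 CPM in controls and 66.1 ± 17.3 CPM at 5 weeks, and Bmp1, the C-propeptidase, 60.4 ± 4.25 and 51.1 ± 6.06 CPM (limma adjusted p = 0.517 and 0.541). Adamts2 was at 46.9 CPM in 5-week replicate 3 and at 60.8 to 104 CPM in the other libraries. Of the 15 laminin, nidogen and perlecan partners of type IV collagen, 14 had a log2 difference below 0 between 5 and 0 weeks, against 45% of all genes. Their mean log2 level was 5.99 in 5-week replicate 3 and 6.45 to 6.69 in the other 11 libraries. Nid1, which joins laminin to type IV collagen, averaged 194 ± 21.1 CPM in controls and 149.7 ± 33.8 CPM at 5 weeks (limma adjusted p = 0.545). It was at 101 CPM in 5-week replicate 3 and at 154 to 224 CPM in the other libraries. Modification and folding genes had median log2 differences near 0 between 5 and 0 weeks, of 0.02 over 16 prolyl and lysyl modification genes and -0.05 over 10 folding and export genes. Mmp9, a gelatinase that neutrophils and macrophages make, averaged 14.6 ± 7.15 CPM in controls and 31.2 ± 10.8 CPM at 5 weeks (limma adjusted p = 0.521). Mmp14, a membrane collagenase, averaged 54.1 ± 1.89 and 47.0 ± 5.11 CPM (limma adjusted p = 0.543). Log2 differences between 5 and 0 weeks were below 0 for 7 of 16 modification genes and 9 of 10 folding and export genes. The same held for 6 of 10 receptor and uptake genes and 6 of 8 degradation genes. At an unadjusted p below 0.05, 0 receptor and uptake genes were lower and 2 higher, and 3 degradation genes were lower and 1 higher (2.79 and 5.84% of all genes).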

How the data were processed

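RNA was taken from flash-frozen whole lung of 12 mice, 4 per group, and sequenced with Illumina libraries, per the labels' protocols. The authors deposited their values as CPM in 1 table, each raised by 0.0001. Per the submitters' processing notes the tools were TopHat2 and Partek and the build mm10. Their versions, the annotation, strand setting and filtering were not stated in the labels. Gene positions are those of the table, less 1 at the end; it names no build, and 3 of 42 chain starts equalled GENCODE M21, so they are not mixed with the RefSeq coordinates on GRCm38.p6. Depth was read from the steps of the low CPM values; 87.2 to 88.0% of them fell on whole steps (tolerance 0.1), which does not recover counts, and no count model or counting interval was used. No library pair was identical among 66.

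Limma 3.58.1 in R 4.3.3 was fitted to log2(CPM + 1) of 15562 genes averaging 1 CPM or more, with a variance trend, over all 12 libraries, two-sided, with Benjamini-Hochberg adjustment over all genes and a threshold of 0.05. Differences are on that scale, which understates changes of low genes. Exact permutation tests, 4 against 4, cannot go below 0.0286. The code was tested on simulated data. Other steps used scipy 1.17.1, numpy 2.4.6 and pandas 2.3.3 in Python 3.11.15, with plots by matplotlib 3.10.9. Exon length was the union of all exons annotated for a gene in GENCODE M21.

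The members, gene lists and tests were chosen with earlier results of these data known. Values in every library, or their range or mean, are given for the 5 chains with the smallest p per comparison. The same holds for the 6 with the highest mean CPM and the members of 8 chain pairs. Col23a1 and Col26a1 were printed outside these rules. Of each related list the 2 genes with the smallest F-test p were eligible. Nothing in the labels says more than that each library is a separate mouse. Alternatives were pseudocounts of 0.1 and 5, no filter or 10 CPM, 2 other scalings, library weights, robust moderation, fits of 2 groups, and leaving out libraries; length, GC and red cell corrections were added after the data were seen. The single-cell experiment described for the series was not analysed here.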

Additional observations from a re-analysis of the deposited data

Results flagged for a closer look

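In groups of 4, a library was marked when its gap to the nearest other library, as a share of the group's range, exceeded Dixon's critical value. This marked 10 of 105 groups, and chance marks about 1 in 20 where groups are independent. These groups are not, because the sums hold chains that were also examined singly and the chains share libraries. An excess over chance was therefore not tested.

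Of these, 7 were 2-week replicate 4, which stood above its group for fibrillar and type VI chains. Col1a1 was at 511 CPM there beside 388 to 399.7 CPM in the other 2-week mice, Col1a2 at 610.4 beside 477 to 494 CPM, and Col3a1 at 685 beside 405 to 452 CPM. Col6a2 was at 274 beside 209 to 219 CPM. The summed CPM was 5613 beside 4641 to 4795 for all chains, 2013 beside 1447 to 1485 for fibrillar chains and 1174 beside 954 to 969 for the others.

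Control replicate 2 was marked for Col5a3, at 14.2 CPM beside 2.93 to 3.97 CPM in the other controls, and for Col6a5, at 4.96 beside 0.524 to 0.947 CPM. 5-week replicate 3 was marked for Col4a3, at 132 CPM beside 208 to 222 CPM.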

How the results depend on the processing

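Over 25 alternatives the count of called chains stayed at 0 in the comparisons of 2 and 5 weeks with controls. Between 5 and 2 weeks library weights called 2 chains, Col7a1 (-0.45, adjusted p = 0.0436) and Col13a1 (0.38, adjusted p = 0.0254), 2 of 31 chains beside 5.66% of all genes, and every other alternative called 0; the cause was not tested. Between 5 and 0 weeks the median of the chains ranged from -0.37 with 5-week replicate 2 left out to -0.12 with 5-week replicate 3 left out, alone or with the other 2 libraries that stood apart. Between 5 and 2 weeks it ranged from -0.35 to -0.13, the latter with library weights. Counts at an unadjusted p below 0.05 ranged from 4 to 19 between 5 and 0 weeks and from 6 to 18 between 5 and 2 weeks. Col18a1 between 5 and 0 weeks turned to 0.0205 without the 3 libraries. Correlations that no longer passed were Col4a3 with Col4a4, at 0.554 without the 2 farthest libraries and 0.448 without 5-week replicate 3, and Col15a1 with Col18a1, at 0.448 on deviations from group means and 0.471 without 5-week replicate 3. Col4a5 with Col4a6 turned to -0.505 without the 2 farthest libraries. No paired analysis was possible because replicate numbers only name libraries. With 4 mice per group, a difference inside the spread between mice was not detectable, and chains below 1 CPM were not tested.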

Other observations

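The 11 chains below a mean of 1 CPM were Col6a4, Col6a6, Col26a1, Col9a3, Col24a1, Col22a1, Col25a1, Col11a1, Col19a1, Col10a1 and Col9a2. Col26a1 was at 0.295, 0.6096, 0.453 and 0.316 CPM in control replicates 1 to 4, 0.716, 0.625, 0.736 and 0.598 CPM in 2-week replicates 1 to 4, and 0.538, 0.539, 0.531 and 0.674 CPM in 5-week replicates 1 to 4. This chain is outside the rules by which chains were named. A read was worth 0.0293 to 0.0384 CPM in these libraries, so the values rest on few reads. All 2-week values of Col26a1 but that of replicate 4 lay above every control, and the 5-week values overlapped the controls. In a fit without the filter its log2 difference between 2 and 0 weeks was 0.24 ± 0.08 (limma adjusted p = 0.529). Col6a6, a type VI chain, was at 2.66 CPM in control replicate 2 and at 0.133 to 0.819 CPM in the other 11 libraries. Col9a2, Col10a1 and Col11a1, chains of cartilage, were at the offset value in 7, 5 and 5 of the 12 libraries.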
